A study of Caenorhabditis elegans with 2 samples.

Results

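The centre of Caenorhabditis elegans chromosome II was taken as the middle 40% of the chromosome, from position 4584001 to position 10696000 of the deposited table. It holds 6112 of the 100257 bins of 1 kb into which the table divides chromosomes I to V and X. The limits were set by position alone, so no measured value chose the bins. The sources used here do not give the genome build of the table. Positions are printed as the table has them, counted from 1.

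The series belongs to a study of retrotransposon transcripts under nuclear RNA interference, and it holds 2 small RNA libraries from young adult hermaphrodites. One is from N2, the wild-type strain. The other is the RNA bound to HRDE-1 with FLAG and StrepII tags, which was pulled from lysate of ground worms with an anti-FLAG resin. The labels do not give the genotype of the tagged worms. The protocol text is the same for each library, and it leaves unsaid if N2 stands for RNA of whole lysate or for a mock pull-down. Both libraries were cloned without the need for a 5′ monophosphate, which lets RNAs with a 5′ triphosphate enter the library. Each group is 1 library, so no difference below has a replicate check, and no test between the libraries or between regions was possible. The intervals in brackets are at 95% and cover counting error only.

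The Argonaute HRDE-1 works in the nuclei of germ cells. It binds secondary small interfering RNAs that RNA-dependent RNA polymerases copy from target transcripts, and it guides silencing of the matching genes, which can be inherited. In C. elegans the centres of the autosomes are rich in genes that are widely expressed and conserved, and the arms are rich in repeats, transposons and young gene families. MicroRNAs are cut from hairpin transcripts and carried by other Argonautes, and 21U piRNAs act through the Argonaute PRG-1.

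Over all bins N2 had 2161837 read equivalents and the HRDE-1 coIP 4828515, where a read equivalent is the deposited value above a floor of 0.1 divided by the value of 1 read. The centre of II held 81393 and 231100 of them. Values below are parts per 1000000 (ppm) of each library's own sum, and a bin counted as measured from a mean of 0.351 ppm over the 2 libraries. The N2 signal was at the floor in 45.5% of the bins of the centre and the coIP signal in 26.3%, with 20.4% at the floor in both. Of the N2 values above the floor, 67.4% in the centre were whole numbers of reads, to within 0.0055 of the deposited value, against 46.7% in the left arm and 51.0% in the right arm of II. In the coIP 33.1% were whole numbers in the centre, against 26.8% and 25.1% in the arms. Fractions of a read are what the sharing of reads between several sites would give, and a value that holds shared reads is uncertain as the value of 1 locus. This touches the runs and genes below in both libraries. The floor amounts to 0.195 ppm in N2 and 0.121 ppm in the coIP, so a value of this size stands for no read. The rule's limits fall in quiet sequence. The first bin inside the left limit held 0.195 ppm in N2 and 0.194 in the coIP, and the bin just outside it 0.195 and 0.121. The last bin inside the right limit held 0.195 and 0.121 ppm, and the bin just outside it 0.195 and 0.448.

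Gene names were put on bins by position with the annotation of WBcel235. A check by position preceded this. Of the 49 microRNA genes that WBcel235 places on II, 23 lay in bins with a deposited N2 value over 10 when no shift was applied, and at most 6 did when the bins were shifted by any other whole number of bins up to 20 either way. For the 9 microRNA genes of the centre the counts were 6 and at most 2. Names are therefore given for runs of bins, with the positions of the table. The table does not cover V as WBcel235 has it. Its last bin of V ends at 20920000, and the last WBcel235 gene of V ends at 20922732. In finer shifts on II the mean log2 N2 value peaked with the genes moved 200 bases to the left, at 3.12 against 2.82 without a shift. Names near the edges of bins or runs are therefore less certain. Bins hold no strand, so genes that overlap or share a bin cannot be told apart.

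These are bulk libraries, in which fewer cells of a type and less RNA per cell cannot be told apart. The centre of II held 3.76% of the N2 signal (3.74 to 3.79) and 4.79% of the coIP signal (4.77 to 4.81), in 6.10% of the bins. The ratio of these shares depended on single bins. Left out of the library totals, the 10 highest bins of each library in the genome turned the shares into 6.44% for N2 and 5.05% for the coIP. With only the bins of the microRNA genes mir-85, mir-57 and mir-60 removed, the shares were 2.21% and 4.76%.

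Both directions of difference were about equally frequent in the centre. Of 3403 measured bins, 477 (14.0%) had a coIP signal 4-fold higher or more, and 471 (13.8%) one that was 4-fold lower or more, on the log2 scale after a pseudocount of 0.121 ppm, which understates the change of low bins. Over all chromosomes 19.4% of measured bins were higher and 9.04% lower. The median log2 ratio of the centre was 0.34, with quartiles of -1.21 and 1.37. The split of the calls depended on the scaling. Higher bins made up 50.3% of the calls with library sums, 23.5% when scaled by the median of ratios, and 26.3% when the totals left out the 10 highest bins of each library. The median of all measured bins moved from 0.73 to -0.12 and to 0.10 under these scalings, and that of the centre from 0.34 to -0.51 and to -0.28.

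Set against the arms of the same chromosome, the centre had fewer higher bins and more lower bins. In the left arm of II 31.5% of measured bins were higher and 6.25% lower, with a median log2 ratio of 1.25. In the right arm the values were 21.4%, 6.11% and 0.85. The median of the centre lay below those of both arms, and that of the right arm between them, with each pseudocount and minimum tried and with the floor subtracted. In bins with whole reads or none in both libraries the order was the same, but the centre was close to the right arm. The medians there were 0.16 for the centre, 0.28 for the right arm, 1.05 for the left arm and 0.25 for all measured bins. Another scaling moves centre and arms alike and is no check of this order. Among bins with at least 10 times the minimum signal the medians were 0.55 for the centre, 2.18 for the left arm and 1.30 for the right arm. The value of 0.55 was the lowest of the 18 arms and centres of all chromosomes. It was close to those of the other autosome centres, which ran from 0.60 on IV to 0.83 on V in such bins.

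The centres of the other autosomes had values on either side of those of II. Their median log2 ratios ran from 0.19 on IV to 0.54 on III, their higher bins from 13.2% to 16.4% and their lower bins from 8.54% to 14.8%. The centre of II lay within these ranges in all 3 measures. It lay below them in its share of marked bins. The authors' marks GRTS and GRH, which the table does not spell out and which stand in published HRDE-1 work for loci under germline nuclear RNAi that show transcriptional silencing or heterochromatin, covered 0.0982% of its bins. The other autosome centres had 0.232% to 0.633% of their bins marked.

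**Figure D1:**
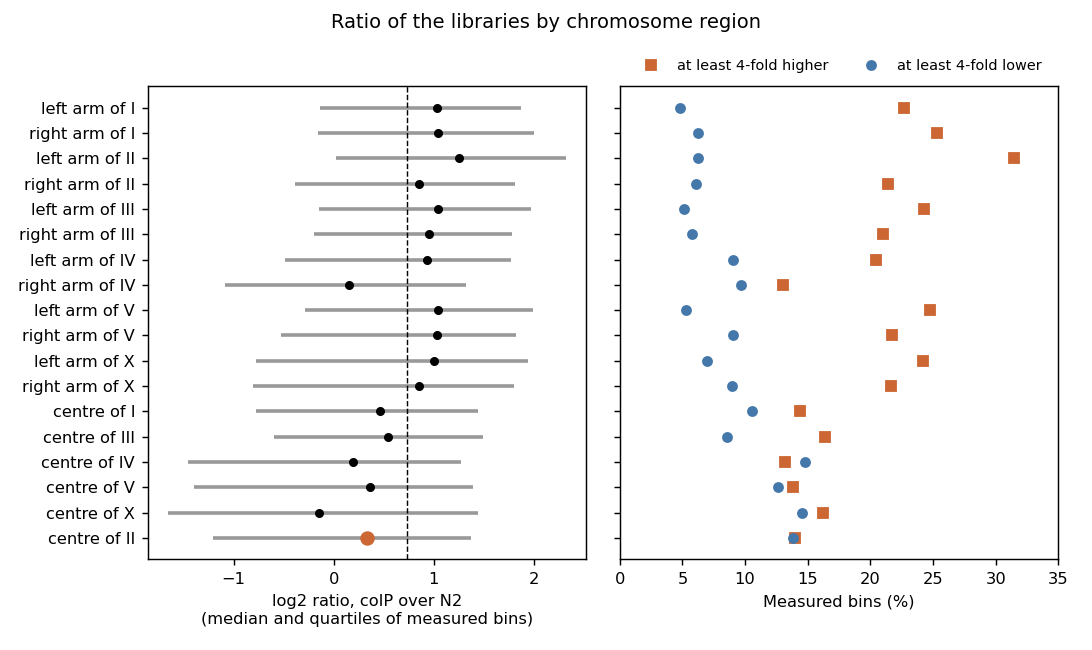
Ratio of the coIP to N2 in the arms and centres of the 6 chromosomes. Left, the median (point) and quartiles (bar) of the log2 ratio over measured bins, with all bins as the dashed line at 0.73; right, the percentage of measured bins at least 4-fold higher (squares) or lower (circles) in the coIP. The centre of II, in the bottom line, has its 2 percentages almost on top of each other at 14.0% and 13.8%.

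The very highest bins took more of the N2 signal of the centre than of its coIP signal. The highest 3 bins held 40.1% of the N2 signal and the highest 10 held 48.1%, against 12.2% and 30.4% in the coIP. The upper 50% of the signal took 15 bins in N2 and 35 in the coIP. Further down the libraries did not keep this order, since 90% of the signal took 1060 bins in N2 and 904 in the coIP. The values of this paragraph include the floor of every bin, which is larger in N2 and raises the numbers of bins. Those numbers were not computed without it. The 3 highest N2 bins each hold a microRNA gene, and the 5 highest coIP bins hold protein-coding genes, a pseudogene and a marked locus.

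Along the centre the ratio changed from place to place. Over the 61 full tiles of 100 kb the median log2 ratio ran from -1.57 to 1.37, and it was below 0 in 21 tiles. The highest tile was chrII:7384001-7484000, where 19 of 49 measured bins passed 4-fold upwards and 0 downwards. Its summed signal was 3.74 times higher in the coIP. The next was chrII:7084001-7184000 at 1.07, with a summed signal 2.07 times higher. Bins near the minimum with no N2 read can also have a log2 ratio of 1.07. Over bins of at least 10 times the minimum the median of this tile was 1.23. The tiles chrII:5284001-5384000 and chrII:8484001-8584000 tied at 1.05, a value that bins near the minimum with no N2 read also have. Their sums in the coIP were 0.925 and 3.48 times those in N2, and their medians over bins of at least 10 times the minimum were 0.76 and 1.51. The lowest tile was chrII:4784001-4884000, with 27 of 58 measured bins at least 4-fold lower and 4 higher. The tile chrII:5184001-5284000 followed with a median of -1.52, although its summed signal was 2.74 times higher in the coIP (701 against 256 ppm). Its coIP sum came mainly from the run of EGAP2.1 and EGAP2.2 described below. Each of these lowest 2 tiles holds 2 genes of the major sperm protein family, but such genes also lie in tiles without a low median. There are 4 in chrII:4884001-4984000 (median -0.11), 3 in chrII:5784001-5884000 (-0.16) and 2 in chrII:5084001-5184000 (0.17). The tile chrII:9984001-10084000 had a median of -1.51, which was 0.01 over its 12 bins of at least 10 times the minimum. Its low median thus came from bins under that level. Its summed signal was also lower in the coIP, at 135 ppm in N2 and 75.6 in the coIP. Of its 45 measured bins 14 were at least 4-fold lower and 3 higher.

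**Figure D2:**
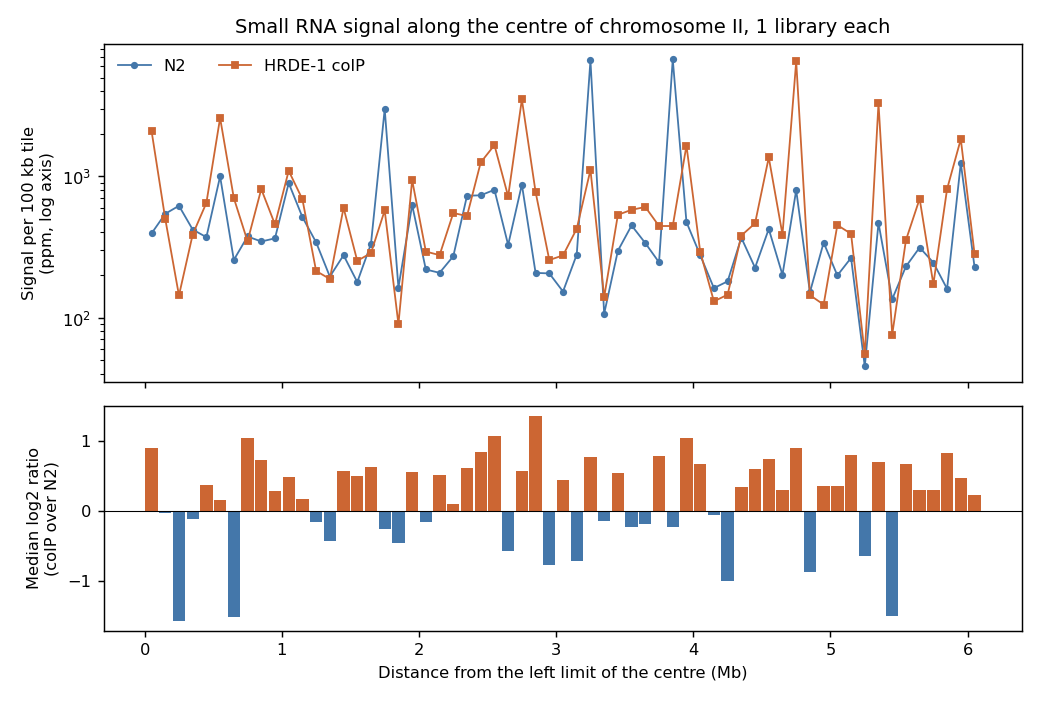
Small RNA signal in the 61 full tiles of 100 kb along the centre of chromosome II. Above, the summed signal per tile in ppm on a log axis for N2 and the HRDE-1 coIP, 1 library each; below, the median log2 ratio of the measured bins of each tile. The 3 tall N2 points are the tiles of mir-60, mir-57 and mir-85, and 40 of the 61 tiles have a positive median, in a range from -1.57 to 1.37.

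Consecutive bins past 4-fold, with gaps of up to 1 bin bridged, formed 286 higher and 249 lower runs. The higher runs held 71.3% of the coIP signal of the centre and 10.8% of its N2 signal. The lower runs held 63.5% of the N2 signal and 1.78% of the coIP signal. Runs were formed by the ratio of the 2 libraries, so it is built in that these shares are unequal. Most runs were 1 bin long, 60.1% of the higher and 55.0% of the lower ones, and the longest were 9 kb in both directions. Of the higher runs 62 had no N2 read and 132 had under 3, so the ratio of those runs has little support in N2. Of the lower runs 36 had under 3 N2 reads, and their calls rest on as little.

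The strongest higher runs by coIP signal lay over single genes or small clusters of genes. The 12 largest together held 45.4% of the coIP signal of the centre and 7.05% of the N2 signal. They were picked by coIP signal among runs called higher, so this contrast is built in as well. Ratios of runs are given after the floor was subtracted, while the ppm values of runs and bins include it. Where the signal is low, a ratio therefore differs from that of the printed ppm values.

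The largest was chrII:9289001-9292000, 3 bins with a pseudogene (WBGene00014663) and the piRNA gene 21ur-8602. Its bins read 59.1, 89.5 and 89.5 ppm in N2 and 1128, 1462 and 1630 ppm in the coIP. Each bin was high in the coIP, and the signal ended sharply, with 0.195 and 0.956 ppm in the next bin to the right. The run stood at 238 ppm in N2 and 4220 in the coIP, 17.6-fold higher (16.2 to 19.3).

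The run chrII:9978001-9981000 covers the protein-coding gene ZK892.6 and holds the highest coIP bin of the centre. Its 3 bins read 75.9, 118 and 6.11 ppm in N2 and 818, 2032 and 44.9 ppm in the coIP. The ratio was 14.4 (13.1 to 15.9), and both flanking bins held under 1 ppm in each library.

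The run chrII:7376001-7384000 was 8 kb long and spans C07D10.5, F43E2.1, C07D10.6 and the long intergenic non-coding RNA gene C07D10.7. The signal was uneven inside it. The first 2 bins read 82.3 and 136 ppm in N2 and 783 and 1517 ppm in the coIP, and the highest of the others read 80.1 ppm in the coIP. Over the run the ratio was 10.7 (9.78 to 11.7).

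Further runs of this kind fell on protein-coding genes with known products. The run chrII:4673001-4675000 holds hmg-11, which encodes a high mobility group protein, and the C-type lectin gene clec-140. Its first bin read 305 ppm in N2 and 1953 in the coIP, and the run was 6.37-fold higher (5.89 to 6.89). The run chrII:8559001-8561000 lies on iff-2, which encodes a translation factor of the eIF5A type, and a small nucleolar RNA gene. It read 149 ppm in N2 and 930 in the coIP, a ratio of 6.22 (5.56 to 6.98). The gene cul-4, a cullin of ubiquitin ligases, and its neighbour C30G12.1 share chrII:7299001-7303000, with 98.3 ppm in N2, 685 in the coIP and a ratio of 6.96 (6.06 to 8.03). The run chrII:9104001-9109000 over dnj-23, a J-domain co-chaperone gene, T24H10.5 and dyrb-1, a dynein light chain gene, had a ratio of 4.56 (4.17 to 4.999).

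Genes named only by clone made up much of the rest. The pair R166.2 and R166.3 lies in chrII:10537001-10539000, which read 113 ppm in N2 and 1367 in the coIP and was 12.1-fold higher (10.62 to 13.7). The run chrII:7122001-7125000, with F10E7.2, F10E7.11 and a pseudogene (WBGene00017345), was 12.7-fold higher (11.0 to 14.7), from 89.7 to 1142 ppm. EGAP2.1 and EGAP2.2 share chrII:5228001-5232000, where nearly all signal lay in 1 bin with 30.6 ppm in N2 and 647 in the coIP; the run ratio was 21.1 (16.6 to 27.2). The run chrII:9379001-9384000 covers the chemoreceptor gene srh-48 and 2 pseudogenes (WBGene00007376 and WBGene00045404) and was 5.62-fold higher (5.21 to 6.07).

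Ranked by ratio, the leading runs longer than 1 bin were smaller and had few N2 reads. The largest ratio, 73.8 (22.7 to 325), was that of chrII:10464001-10466000 with ZK673.6 and sdz-37. It rested on 2.71 N2 read equivalents against 447 in the coIP. The run chrII:9605001-9610000, with the nuclear hormone receptor gene nhr-19 and the poly(A) polymerase gene pap-2, had a ratio of 63.8 (27.2 to 197) from 4.99 N2 read equivalents. Most of its signal lay in 2 bins, with 0.644 and 2.01 ppm in N2 and 72.5 and 67.3 ppm in the coIP.

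The other 4 had ratios from 24.99 to 33.2. The run chrII:10468001-10472000, with the troponin C gene tnc-2, ZK666.1, ZK666.2 and clec-143, stood at 8.92 ppm in N2 and 273 in the coIP. The others lay at gbh-1 (chrII:10692001-10694000, ratio 27.3), at mtrr-1 (chrII:9285001-9287000, ratio 26.8) and at cdk-11.1, B0495.5 and moa-2 (chrII:7698001-7700000, ratio 24.99). The run of mtrr-1, which encodes a methionine synthase reductase, lies 2 kb to the left of the run with the largest coIP signal.

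By N2 signal, the lower runs were led by microRNA genes. The highest N2 bin of the centre was chrII:8393001-8394000, which holds mir-85 and part of F49E12.8. It read 6416 ppm in N2 and 77.2 ppm in the coIP, 83.9-fold lower (75.7 to 93.1). The bin of mir-57, chrII:7850001-7851000, read 6278 and 89.4 ppm, 70.8-fold lower (64.3 to 78.0). The bin of mir-60, chrII:6328001-6329000, read 2600 and 136 ppm, 19.3-fold lower (17.8 to 20.99). In all 3 the signal was confined to 1 bin, with under 2 ppm in N2 on either side. MicroRNAs are short processed RNAs that guide repression of messenger RNAs in the cytoplasm.

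**Figure D3:**
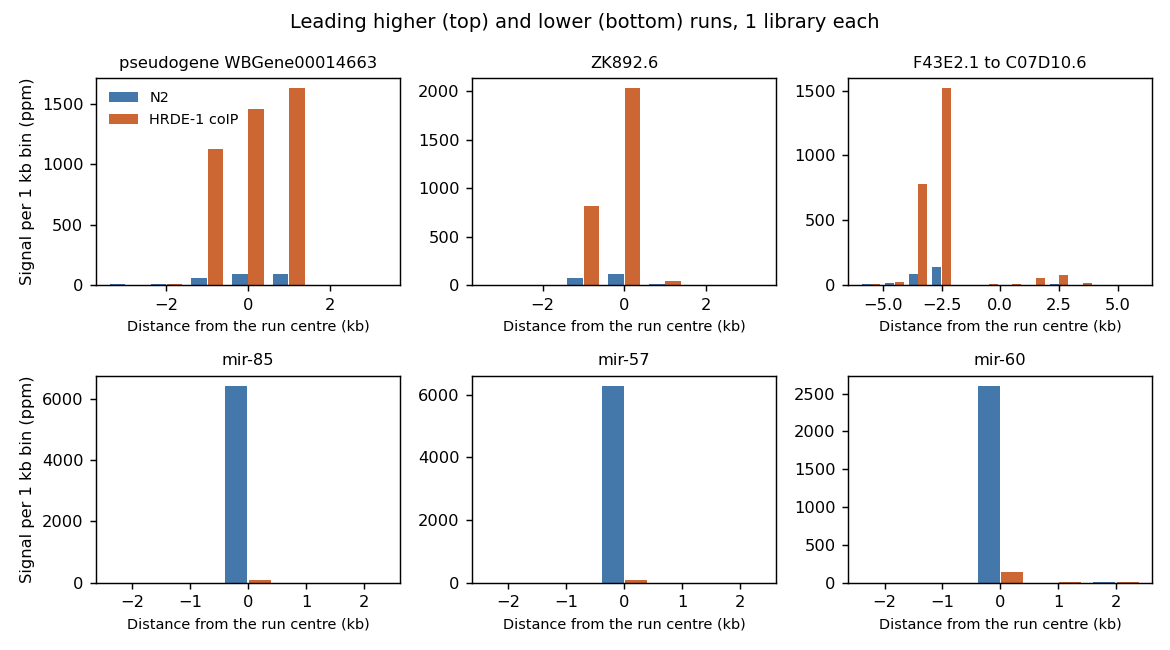
Signal per 1 kb bin, in ppm, in the 3 higher runs with most coIP signal (top) and the 3 lower runs with most N2 signal (bottom), each with 2 flanking bins on either side; 1 library each, and the vertical axes differ. The higher runs spread over neighbouring bins, and the microRNA bins of mir-85, mir-57 and mir-60 stand alone at 6416, 6278 and 2600 ppm in N2.

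The other lower runs with much N2 signal held further non-coding RNA genes in 4 of 5 cases. Genes that the annotation classes only as ncRNA were not looked for, so the remaining run may hold one. The bin chrII:10545001-10546000 holds the kinase gene mnk-1 and the small nucleolar RNA gene R166.7, and read 748 ppm in N2 and 11.2 in the coIP, 68.3-fold lower (52.1 to 91.2). The run chrII:5292001-5296000, with ZK622.1, ZK622.4 and 2 tRNA genes, read 212 ppm in N2 and 5.59 in the coIP, 41.7-fold lower (27.8 to 65.0). The run chrII:6968001-6971000 holds art-1, C15F1.5, the piRNA gene 21ur-14704 and the genes sup-39 and mir-1831, which the annotation lists as small nuclear RNAs, and was 7.92-fold lower (6.84 to 9.22). The run chrII:7183001-7185000 with pdl-1 and 2 small nucleolar RNA genes was 6.60-fold lower (5.85 to 7.46). The bin chrII:7367001-7368000 holds the protein-coding gene F43E2.6 and was 12.3-fold lower (10.1 to 15.2), from 281 to 23.1 ppm.

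High lower bins were narrower than high higher bins. Among the 50 lower bins with the most N2 signal, the median share of the bin in the N2 signal of the 5 bins centred on it was 79.3%, and in 18 it was over 90%. Among the 50 higher bins with the most coIP signal the median was 67.5%, with 8 over 90%.

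Gene families were read as the mean signal of the bins each gene lies in, so a gene shares its value with its neighbours in the bin. The scale is the log2 ratio after the pseudocount. Of 1504 protein-coding genes in the centre 1189 were measured, of which 14.1% were at least 4-fold higher and 17.8% at least 4-fold lower, with a median of 0.29. The families below are set beside these values, as a description.

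Of the 9 microRNA genes 8 were measured, 0 were higher and 6 were lower, with a median log2 ratio of -4.75. Beside the 3 leading ones, mir-236 read 186 ppm in N2 and 7.89 in the coIP, mir-1822 read 65.0 and 1.60 ppm, and mir-2953 read 7.48 ppm against no coIP read. The heterochronic microRNA gene lin-4, which times larval development, departed most from the rest with 59.6 ppm in N2 and 37.3 in the coIP, a log2 ratio of -0.67. Its bin also lies in the protein-coding gene F59G1.4, so the coIP signal cannot be assigned to either. The gene mir-8192 did not pass 4-fold either, with 1.17 ppm in N2 and 0.339 in the coIP, from 2.15 N2 read equivalents. mir-261 had no N2 read.

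Of 24 tRNA genes 23 were measured, 0 higher and 20 lower, with a median of -4.13. The exception above 0 was the tRNA gene WBGene00022983, whose bin read 82.3 ppm in N2 and 175 in the coIP and also holds linc-44. The tRNA genes share 22 bins, and 19 of these bins held fractional N2 reads. The 8 genes annotated as small nuclear RNAs lie in 7 bins, of which 5 were lower, and all 7 held fractional N2 reads. The genes sup-39 and mir-1831 share 1 bin and its values. Counted by gene, 6 of the 8 were lower. Among them are the spliced leader genes sls-2.1, at 19.7 and 2.17 ppm, and sls-2.2, at 36.6 and 2.14 ppm, whose products are joined to the ends of messenger RNAs of operons. The third, sls-2.3, read 19.1 ppm in N2 and 13.0 in the coIP and did not pass 4-fold.

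Small nucleolar RNA genes were mixed. Of 37, 26 were measured, 7 were lower and 3 higher, with a median of -1.23. The lowest was R166.7 at -6.05. The 3 higher ones were C41C4.11, with 18.8 ppm in N2 and 169 in the coIP, EEED8.19, with 1.56 and 15.7 ppm, and F54C9.12, with 29.2 and 135 ppm. C41C4.11 lies in a higher run with chst-1, lron-4 and C41C4.9, and F54C9.12 in the run of iff-2, so the signals of these small RNA genes and of the genes beside them cannot be told apart.

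Major sperm protein genes were nearly all lower. These genes encode the cytoskeletal protein of nematode sperm and are nearly identical copies. Of 13 in the centre, 13 were measured, 12 were lower and 0 higher, with a median of -4.63. The gene msp-64 read 37.9 ppm in N2 and 0.157 in the coIP, msp-45 read 24.1 and 0.242 ppm, and msp-40 read 32.0 and 0.581 ppm. The exception was msp-152, with 16.8 ppm in N2 and 4.90 in the coIP. In 15 of their 16 bins the N2 reads were fractional, as near-identical copies that share reads would give, so the values of single msp genes are uncertain.

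Ribosomal protein genes also read lower in the coIP. All 6 had a negative log2 ratio, with a median of -1.70, and rpl-33 and rpl-5 passed 4-fold. The gene rpl-5 read 42.1 ppm in N2 and 9.42 in the coIP. Of 10 collagen genes with a col name, which encode proteins of the cuticle, 6 were measured and 3 were lower, among them col-20 with 58.8 and 11.4 ppm. Collagen genes with other names were not looked for. The collagen genes col-38, with 16.1 and 46.3 ppm, and col-74, with 0.879 and 1.76 ppm, went the other way, without passing 4-fold.

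Chemoreceptor genes of the sr families had little signal. Of 43, 13 were measured, 5 lower and 2 higher. The lowest was sre-39, with 35.1 ppm in N2 and 0.194 in the coIP. The higher ones were srh-48, in the run described above, and srh-39, which had no N2 read and 18.1 read equivalents in the coIP. The nuclear hormone receptor genes (3 measured), the F-box genes (2) and the genes with a MATH domain (2) had none past 4-fold. No histone gene and no gene with a spe name was found in the centre of II.

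Among the genes of small RNA pathways, nrde-2 stood out. It encodes a nuclear RNAi factor that acts with HRDE-1. It read a mean of 14.7 ppm in N2 and 83.5 in the coIP, a log2 ratio of 2.50. The excess lay at the ends of the gene. Its first bin by position, chrII:10242001-10243000, read 25.1 and 151 ppm, and its last, chrII:10247001-10248000, read 18.3 and 260 ppm, while the 4 bins between had ratios of 1.36 to 2.40. The end bins are shared with neighbouring sequence, and whose transcript their reads match cannot be read from bins.

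The other 5 genes of this group did not pass 4-fold. The gene znfx-1, which encodes a helicase of germ granules that acts in inherited RNAi, had a log2 ratio of 1.12, with 1 bin of its 11 at 8.83 ppm in N2 and 82.5 in the coIP. The piRNA pathway gene pid-1 had 1.12, the Argonaute gene wago-5 had 0.34, and the RNA-dependent RNA polymerase gene rrf-3 had 0.08. The piRNA pathway gene tofu-6 had -0.13. With scaling by the median of ratios, 3 of the 6 genes had a negative log2 ratio and none passed 4-fold; nrde-2 then fell short of it.

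**Figure D4:**
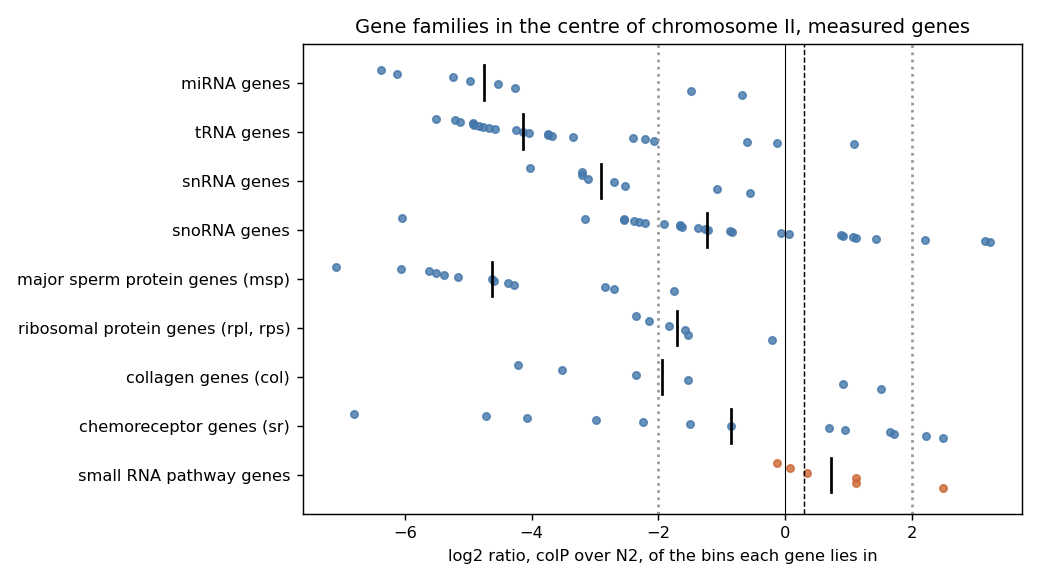
Log2 ratio of coIP over N2 for measured genes of 9 families in the centre of chromosome II, 1 point per gene, in rank order within each family, with the family median as a black bar; 1 library each. Dotted lines mark 4-fold, the dashed line marks the median of 0.29 over protein-coding genes; the medians of the microRNA, tRNA and msp genes lie between -4.75 and -4.13.

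The other scalings lower every coIP ratio by 1 factor, so families that read lower could only stay lower. Families near 0 changed side with the median of ratios. The median of the 54 measured pseudogenes went from 0.18 to -0.62, that of the piRNA genes from 0.49 to -0.64, and that of the small RNA pathway genes from 0.73 to -0.06. The median of the long intergenic non-coding RNA genes stayed above 0, at 1.05 and then 0.23.

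Bins that overlap pseudogenes were rich in coIP signal, and a few loci held most of it. Bins with pseudogene exons made up 2.85% of the centre and held 15.4% of its coIP signal. The run of WBGene00014663 held 4220 ppm and that of srh-48 with its 2 pseudogenes 1883 ppm. The median pseudogene read 1.22 ppm in the coIP, against a mean of 38.4. Bins with pseudogene exons held 3.27% of the N2 signal, or 5.59% once the bins of mir-85, mir-57 and mir-60 were left out. Gene by gene, 11 of 54 measured pseudogenes were higher and 8 lower. Of 69 piRNA genes, 36 were measured, 6 higher and 8 lower. Of 22 long intergenic non-coding RNA genes, 13 were measured, 3 higher and 1 lower; Y9D1A.1 read 1.07 ppm in N2 and 20.7 in the coIP, and C07D10.7 read 1.46 and 22.4 ppm.

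Bins rich in exon held more than their share of the coIP signal, although bins of 1 kb cannot place reads on exons. Bins with at least 50% exon of protein-coding genes made up 39.3% of the centre and held 56.7% of the coIP signal. They held 33.0% of the N2 signal, or 56.4% without the 3 microRNA bins, so the 2 libraries were alike in this once those bins were set aside. Bins inside protein-coding genes with no exon made up 5.61% of the centre and held 0.515% of the N2 and 1.15% of the coIP signal.

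Long runs were more often lower than higher: 24 lower and 12 higher runs reached 5 kb. The higher ones include chrII:7444001-7453000, 9 kb with no exon of a protein-coding gene, which holds Y9D1A.1 and a pseudogene (WBGene00021187). All 9 bins were past 4-fold, and the run read 34.6 ppm in N2 and 274 in the coIP, 8.25-fold higher (6.54 to 10.7). The potassium channel gene shw-1 fills chrII:8306001-8314000, which read 8.67 ppm in N2 and 147 in the coIP, a ratio of 20.4 (12.2 to 35.1). The gene crh-2, of the CREB family of transcription factors, lies in chrII:5179001-5184000, with 5.08 and 101 ppm and a ratio of 24.2 (12.7 to 53.5).

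Several long lower runs hold msp genes. The run chrII:5794001-5803000 with msp-63 and msp-142 had all 9 bins past 4-fold and read 146 ppm in N2 and 3.09 in the coIP, 72.6-fold lower (37.996 to 149). The run chrII:5156001-5162000 with msp-45 and the chemoreceptor gene srb-13 read 131 and 1.89 ppm, 113-fold lower (48.5 to 294), from 5.68 coIP read equivalents. The runs with msp-49 and msp-50 (chrII:5193001-5201000) and with msp-3 (chrII:4785001-4790000) were 11.7-fold and 25.5-fold lower.

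Other long lower runs hold no msp gene. In chrII:5756001-5761000, with F10C1.3 and F10C1.8, N2 had 299.5 read equivalents and the coIP 0.532, which is at least 223-fold lower when 3 coIP reads are counted. In chrII:5436001-5441000, with the glutamate receptor gene nmr-1, F07F6.1 and dct-5, 1 bin held 121 of the 133 ppm of N2, and the coIP had 0.883 ppm. The run chrII:4860001-4868000 with the collagen gene col-17 and nspd-5 read 141 and 3.99 ppm, 46.5-fold lower (27.4 to 82.9).

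The authors' marks named few of the places with much coIP signal. In the centre of II 6 bins carried a mark, 6 of them GRH and 2 of these also GRTS, in 4 runs. All 6 read higher in the coIP, with a median log2 ratio of 1.63, and 2 passed 4-fold. Of the 3397 measured bins without a mark 475 (14.0%) were at least 4-fold higher, with a median of 0.33. The sources do not give the basis of the marks, which may have drawn on small RNA data. The only GRTS bins were chrII:5098001-5100000. The protein-coding gene C04G6.6 lies in the second of them. No gene of the classes used for naming was found for the first, which may hold a gene classed only as ncRNA. They read 538 and 38.3 ppm in N2 and 1859 and 254 in the coIP, together 3.64-fold higher (3.43 to 3.86). The first of the 2 was high in both libraries, the fifth highest bin of the centre in N2 and the third in the coIP.

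The other marked runs were smaller. The pseudogene WBGene00020164 lies in chrII:7082001-7084000, whose bins read 13.4 and 52.0 ppm in N2 and 33.3 and 349 in the coIP, 5.83-fold higher (4.93 to 6.98). The bin of cin-4, chrII:7040001-7041000, read 4.43 and 12.5 ppm, a ratio of 2.90 (1.47 to 6.84), and that of the pseudogene WBGene00017288, chrII:5348001-5349000, read 16.1 and 30.0 ppm, a ratio of 1.86 (1.28 to 2.78). Of the 100 bins of the centre with the most coIP signal 3 were marked, out of only 6 marked bins in the whole centre. Of the 97 without a mark 75 were at least 4-fold higher, against 14.0% of all measured bins without a mark. The 97 were picked by coIP signal, the numerator of the ratio, so a high share among them is built in. The run of WBGene00014663, the ZK892.6 run and the F43E2.1 run carry no mark.

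The authors' deposited table gives a p-value per bin whose method is not stated. It was at most 0.05 in 1054 of the 6112 bins of the centre, 17.2%, against 17.4% of all bins. Of these bins in the authors' deposited table, 619 (58.7%) read higher and 435 lower in the coIP after scaling, against 12593 (72.3%) and 4835 over all bins. Of the bins of the centre in the authors' deposited table, 389 of the higher and 353 of the lower ones were also past 4-fold here.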

How the data were processed

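The authors deposited a coverage signal per 1 kb bin for 1 N2 and 1 HRDE-1 coIP library, with a p-value and 2 marks per bin, per the file headers. Bowtie 0.12.7 was used, per the submitters' processing notes. For the build, read filters and scaling total, the sources used here give nothing. The lowest deposited value is 0.1, taken as a floor, and above it 1 read is worth 0.232 in N2 and 0.169 in the coIP. Because many values are fractions of reads, no count test was run. Each library was set to ppm of its sum, a bin was measured at a mean of 0.351 ppm, and log2 ratios used a pseudocount of 0.121 ppm. Run ratios and shares had the floor subtracted, but the shares held by the highest bins of the centre include it. Their intervals treat read equivalents as counts; reads from PCR are not independent molecules, so they cover counting error only.

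Named are the 12 higher runs with the most coIP signal, the 6 (2 or more bins long) with the largest ratio, the 8 lower runs with the most N2 signal, the 5 highest bins per library, the marked runs and the 3 highest and lowest tiles. A gene named a run when it reached 200 bases inside its edges. Genes of the annotation class ncRNA were left out of this naming, so the lists of genes per run can be incomplete. Members, lists and rules were chosen with earlier results of these data known, and genes named among the long runs were chosen after their values were seen. Counting was tested on simulated data. Python 3.11.15, numpy 2.4.6, pandas 2.3.3, scipy 1.17.1 and matplotlib 3.10.9 were used. Alternatives covered the scaling, pseudocount, minimum, fold, floor, width of the centre and bins with whole reads.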

Additional observations from a re-analysis of the deposited data

How the results depend on the processing

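Counts of bins at least 4-fold higher and lower, 477 and 471 as reported, were 253 and 825 by the median of ratios, 289 and 810 with totals without the 10 highest bins, 247 and 228 with a pseudocount 10 times larger, 295 and 209 at 10 times the minimum, and 1202 and 896 at 2-fold or 201 and 250 at 8-fold. In bins with whole reads or none in both libraries, an alternative added after seeing the data, they were 134 and 185. They moved by less than 1.5 times with a smaller pseudocount, no minimum or a subtracted floor. The reported median log2 ratio, 0.34, turned negative with the median of ratios (-0.51), without the 10 highest bins (-0.28) and with no minimum (-0.32), where bins at the floor enter; it was 0.23 with the larger pseudocount, 0.55 at 10 times the minimum, 0.46 with the floor subtracted and 0.16 in bins with whole reads. With the median of ratios the marked bins had medians of 1.45 (GRTS, from 2.26) and 0.82 (GRH, from 1.63). The share of N2 in the centre, 3.76%, was 3.81% with values as deposited, 6.44% without the 10 highest bins, 4.64% in the middle 50% of the chromosome and 2.21% without the bins of mir-85, mir-57 and mir-60, the last added after seeing the data; that of the coIP, 4.79%, was 5.05%, 6.93% and 4.76% in the last 3. Of the 18 higher named runs none changed direction under the median of ratios, which lowers every coIP ratio; of all 26 named runs 21 moved beyond their counting interval, among them the run of C04G6.6, from 3.70 to 2.11. No paired analysis was possible because N2 and coIP are single libraries, and leaving out a replicate was not possible for the same reason. A bin with under 3 N2 reads, as in 132 of the 286 higher and 36 of the 249 lower runs, cannot give a firm ratio at this depth.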

Other observations

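In the centre 45 pairs of a higher and a lower run stood side by side, with a gap of at most 1 kb. They involve 43 of the 249 lower and 45 of the 286 higher runs, and a run can be in more than 1 pair. Near the autophagy gene lgg-1, chrII:6346001-6350000 read 15.7 ppm in N2 and 115 in the coIP, and the adjoining chrII:6343001-6346000, with txt-18, read 145 and 6.26 ppm. The run chrII:5663001-5666000 with mdt-26, a Mediator subunit gene, read 25.1 and 128 ppm, and chrII:5666001-5668000 with C25H3.7 read 156 and 13.6 ppm. The gene C25H3.15 lies in both of the latter runs.

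Next to the polycystin gene lov-1, whose run chrII:10106001-10110000 read 78.8 ppm in N2 and 0.702 in the coIP, the run chrII:10104001-10106000 with ZK945.4 read 10.4 and 151 ppm. The transcription factor gene klf-3 lies in chrII:6618001-6623000, with 11.0 and 110 ppm, beside chrII:6623001-6630000 with F54H5.2 and F54H5.5, which read 36.7 and 1.28 ppm. The sex determination gene tra-2 and eif-2Bgamma share chrII:6965001-6968000, at 7.38 and 41.5 ppm, next to the lower run of art-1 and sup-39. These pairs were chosen after their values were seen, and no count for other regions was made.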
